A study of Mus musculus with 6 samples.

Results

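The integrated stress response genes described here are 10 genes that encode the transcription factors of this response, its feedback regulators and its main metabolic outputs: Atf4, Atf5, Ddit3, Trib3, Ppp1r15a, Eif4ebp1, Asns, Sesn2, Chac1 and Nupr1. They were taken by symbol from a table of 55357 Ensembl genes, and all 10 were found. Ddit3 had 2 rows, of which 1 was listed at 0 in every tumour, and the row with the higher mean was used. RNA was measured in 6 subcutaneous tumours of KPC1242, a mouse pancreatic ductal adenocarcinoma (PDAC) line, grown in C57BL/6J mice after injection of 250000 cells. Mice in the FA group received 2 mg of folinic acid, a reduced folate, by daily gavage from day 8 to day 12, and mice in the PBS group received phosphate-buffered saline on the same days. Tumours were taken on day 14, giving 3 FA and 3 PBS tumours with 1 library each. All 6 come from 1 cell line, the age and sex of the mice are not given in the labels, and the labels do not state that each tumour came from its own mouse, so p-values measure only the spread between these tumours.

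In the integrated stress response, kinases that sense different stresses phosphorylate the translation initiation factor eIF2α, which lowers protein synthesis in general while the messenger RNA of the transcription factor ATF4 is translated more. ATF4 then switches on genes for amino acid supply, redox balance and, under prolonged stress, cell death. Much of ATF4 control acts on translation, so the level of Atf4 RNA is not the level of the protein. In pancreatic cancer the response is known as a way for tumour cells to cope with scarce amino acids and oxygen.

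ATF4 and its partners of the C/EBP family bind a composite element with the core TGATGNAA. The promoters of these genes were searched for that core on both strands, because the element is what ties several of them to ATF4. RefSeq promoters of build GRCm38.p6, from 250 bases before to 50 bases after a transcription start, were available for 9 of the 10 genes. The core was present in 4 of these 9 genes, against 4.51% of the 27025 genes in the table. Each match is shown 5′ to 3′ on the strand that carries the core, with the core in capitals, to show how the central bases and flanks differ.
Asns: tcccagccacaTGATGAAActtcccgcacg
Chac1: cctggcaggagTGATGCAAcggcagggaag
Nupr1: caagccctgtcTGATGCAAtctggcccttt
Trib3: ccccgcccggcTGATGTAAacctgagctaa

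The Asns match lies at chr6:7693214-7693243, and its core ends 16 bases before the start, on the strand of the gene. The core of Chac1 ends 186 bases before the start (chr2:119351038-119351067) and that of Nupr1 ends 103 bases before it (chr7:126625562-126625591), both on the opposite strand. In Trib3 the core begins 15 bases after the start, also on the opposite strand (chr2:152344028-152344057). Chac1 and Nupr1 shared the same 8 bases, and Asns and Trib3 each had another base at the open position. The promoters of Atf4, Atf5 (both of its promoters), Ddit3, Ppp1r15a and Sesn2 did not hold these letters in this window. The gene table used for RNA levels names no genome build, so these coordinates belong to the RefSeq table only.

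The values are TPM, which corrects for transcript length and sets every library to a common sum, so levels can be compared between genes. Depth is unknown, since TPM does not keep it. FA replicate 3 stood apart: its correlation with the other tumours over 15023 genes, which are not independent replicates, was 0.949 to 0.968, against 0.981 to 0.987 among the other 5. It held the highest value of the 6 tumours for all 9 fibroblast, all 9 macrophage, all 8 endothelial and all 8 skeletal muscle markers. Summed fibroblast markers were at 6805 TPM in FA replicate 3, at 2024 to 2525 TPM in the other FA tumours and at 1962 to 3693 TPM in PBS tumours. The 8 epithelial markers summed to 5468 to 5884 TPM in FA and 4954 to 5844 TPM in PBS tumours, so the labelled epithelial tumour was present in all 6. The T and NK lymphocyte markers summed to at most 6.76 TPM in any tumour, and 7 of those 8 genes averaged under 1 TPM. In whole-tumour RNA, fewer cells of a type and less RNA per cell cannot be told apart.

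The genes covered a wide span of levels. Nupr1 and Atf4 were the most abundant, with means of 301.7 and 286.5 TPM over the 6 tumours, above 97.2% and 97.0% of tested genes. Their ranges overlapped, and Nupr1 was the higher of the pair in 4 of 6 tumours. Eif4ebp1 followed at 112.3 TPM, separated from both neighbours in the order. Asns (46.8 TPM), Atf5 (41.1 TPM) and Ddit3 (39.8 TPM) had overlapping ranges, although Asns exceeded Atf5 in all 6 tumours. Ppp1r15a averaged 22.9 TPM and Trib3 14.5 TPM, and Sesn2 (6.27 TPM) and Chac1 (3.49 TPM) were the least abundant and did not overlap each other.

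**Figure D1:**
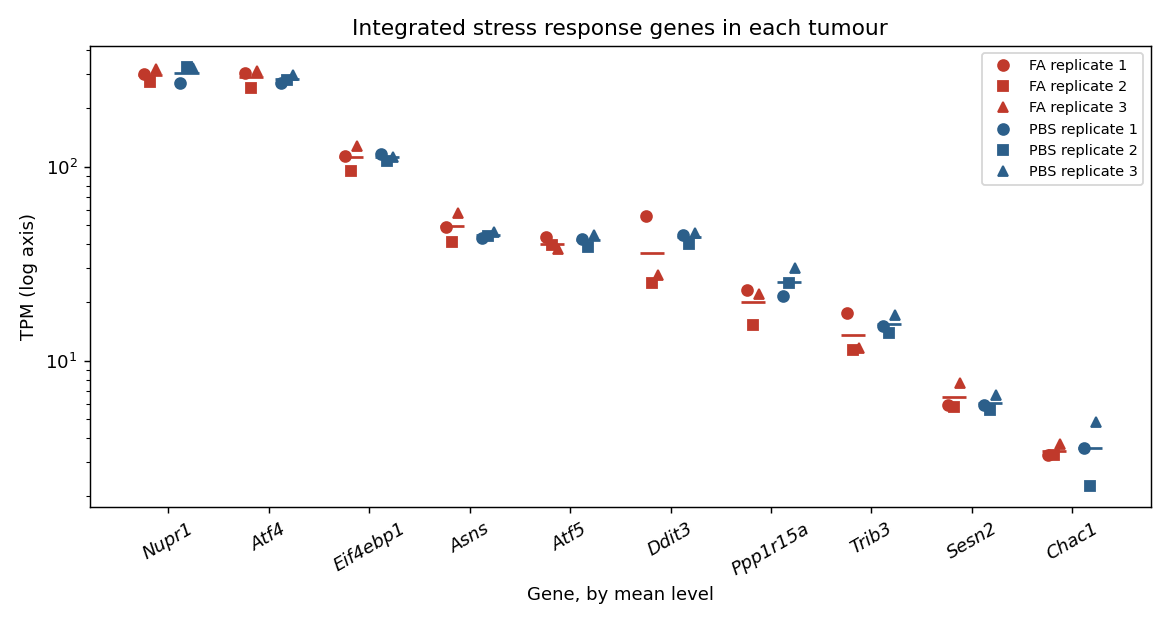
TPM (log axis) of the 10 genes, ordered by mean level. Red symbols are the 3 FA tumours and blue symbols the 3 PBS tumours, each symbol shape is a replicate number, and horizontal lines are group means. The 2 groups overlap for every gene, and Ddit3 shows the widest gap inside the FA group, from 25.2 to 55.5 TPM.

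The comparison of FA with PBS asked whether the stress response differed in the treated tumours. None of the 10 genes differed beyond the spread between tumours. By limma on log2(TPM + 1), 0 of 10 genes passed an adjusted p under 0.05, as did 0 of all 15023 tested genes (0% called), and each of the 10 had an adjusted p of 1. At an unadjusted p under 0.05 there were also 0 of 10, against 1.28% of all tested genes. Separate ranges of FA and PBS were seen for 0 of 10 genes, against 4.69% of tested genes. The mean log2 value was higher in FA for 4 genes and lower for 6, where 50.7% of tested genes were higher, and the median difference of the 10 genes was -0.020 against 0.0016 for all tested genes. Without FA replicate 3, 1 was higher and 9 were lower, where 55.5% of tested genes were higher. The median was then -0.067 against 0.014 for all genes, and 0 passed. Leaving out FA replicate 2 instead put Asns (0.26), Sesn2 (0.14), Atf4 (0.12), Eif4ebp1 (0.11), Chac1 (0.024) and Nupr1 (0.023) above 0. In that setting Ppp1r15a (-0.15), Ddit3 (-0.14), Trib3 (-0.090) and Atf5 (-0.049) were below 0. The direction of Atf4, Sesn2, Eif4ebp1, Chac1 and Nupr1 therefore depended on which of these FA tumours was left out. Whichever single tumour was left out, Asns stayed above 0, and Ddit3, Trib3, Ppp1r15a and Atf5 stayed below 0.

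**Figure D2:**
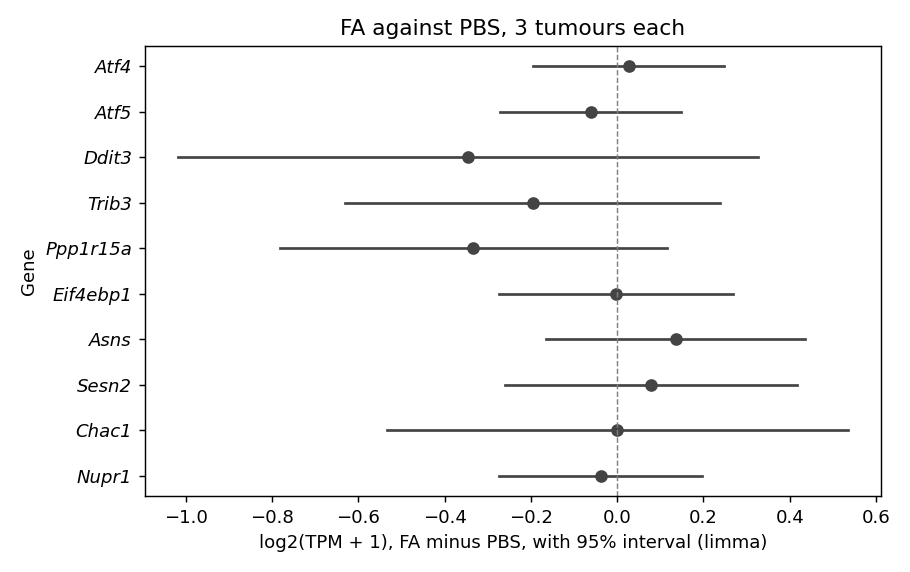
Difference of mean log2(TPM + 1), FA minus PBS, for each gene with its 95% interval from limma, 3 tumours per group. Every interval includes 0. The widest belongs to Ddit3, from -1.02 to 0.33, and the narrowest to Atf5, from -0.27 to 0.15.

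Atf4, the central factor of the response, was at 303.61, 253.23 and 312.35 TPM in FA replicates 1 to 3 and at 271.24, 280.91 and 297.62 TPM in PBS replicates 1 to 3. The FA tumours held both the highest and the lowest value, and the PBS tumours lay between them. Group means were 289.7 ± 31.9 and 283.3 ± 13.3 TPM (SD, n = 3 each), and the log2 difference was 0.03 ± 0.09 (standard error), with a 95% interval from -0.19 to 0.25. Leaving out 1 tumour in turn gave differences from -0.030 to 0.12, so its sign was not stable.

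Atf5 encodes a related factor whose translation is controlled in the same way and which serves the mitochondrial stress response. It measured 43.26, 39.45 and 37.91 TPM under FA and 42.48, 38.78 and 44.77 TPM under PBS. Its ratio of the highest to the lowest tumour was 1.18, the smallest of the 10 genes. Its log2 difference was -0.06 ± 0.09, with an interval from -0.27 to 0.15, and leaving out PBS replicate 2 gave -0.12, leaving out PBS replicate 3 gave -0.015.

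Ddit3 encodes CHOP, a factor downstream of ATF4 that is associated with cell death under lasting stress. It was at 55.46, 25.20 and 27.73 TPM in the FA tumours and at 44.36, 40.01 and 45.82 TPM in the PBS tumours. FA replicate 1 was above every PBS tumour and the other 2 FA tumours were below every PBS tumour. The means were 36.1 ± 16.8 and 43.4 ± 3.02 TPM, and the log2 difference was -0.35 ± 0.28, with an interval from -1.02 to 0.33.

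The split inside the FA group was wider for Ddit3 than for any other of the 10 genes. The SD of log2(TPM + 1) was 0.60 over FA and 0.10 over PBS tumours, where the medians over all tested genes were 0.175 and 0.11. FA tumours varied more than PBS tumours in 70% of tested genes, so a wider FA group was common in these data. Without FA replicate 1 the Ddit3 difference was -0.69, with an unadjusted p of 0.000549 from limma and an adjusted p of 0.688. In that limma fit, 615 of 15038 tested genes had an unadjusted p under 0.05, against 192 of 15023 with all tumours. Without FA replicate 2 the Ddit3 difference was -0.14.

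Among the feedback genes, Trib3 had the same order of tumours as Ddit3. Trib3 encodes a pseudokinase that is induced by ATF4 and CHOP and dampens their activity. It measured 17.65, 11.32 and 11.65 TPM under FA and 15.11, 13.89 and 17.20 TPM under PBS, so FA replicate 1 was again highest and the other 2 FA tumours lowest. Its log2 difference was -0.20 ± 0.18, with an interval from -0.63 to 0.24. Without FA replicate 1, again the highest tumour, it was -0.39, with an unadjusted p of 0.0228 and an adjusted p of 0.83 from limma. As given above, low unadjusted p-values were more common over all genes in that setting. Without FA replicate 2 the Trib3 difference was -0.090.

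Ppp1r15a encodes GADD34, the inducible subunit that leads a phosphatase back to eIF2α and so ends the response. It measured 23.22, 15.31 and 22.10 TPM under FA and 21.50, 25.15 and 29.99 TPM under PBS. FA replicate 2 was the lowest and PBS replicate 3 the highest, and 2 FA tumours lay above the lowest PBS tumour. The means were 20.2 ± 4.28 and 25.5 ± 4.26 TPM, with a log2 difference of -0.33 ± 0.19 and an interval from -0.78 to 0.12. Its unadjusted p of 0.121 was the smallest of the 10, and its difference stayed below 0 without any 1 tumour, from -0.45 to -0.15, the last without FA replicate 2.

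Eif4ebp1 encodes 4E-BP1, an ATF4 target that binds the cap-binding factor eIF4E and restrains translation. It measured 114.26, 95.07 and 128.44 TPM under FA and 116.67, 107.12 and 112.18 TPM under PBS. The FA tumours held the highest and the lowest value here as for Atf4. The log2 difference was -0.002 ± 0.11, with an interval from -0.27 to 0.27.

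The metabolic and survival outputs began with Asns, asparagine synthetase, whose promoter match is shown above. It measured 48.74, 41.19 and 57.84 TPM under FA and 42.97, 43.88 and 46.17 TPM under PBS. FA replicate 3 was highest and FA replicate 2 lowest, and the order of the 6 tumours was the same as for Atf4. Its log2 difference of 0.14 ± 0.13 had an interval from -0.16 to 0.44, and it was 0.016 without FA replicate 3 and 0.26 without FA replicate 2.

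Sesn2 encodes sestrin 2, which reports leucine shortage to the growth kinase mTORC1 and protects against oxidation. It measured 5.93, 5.81 and 7.72 TPM under FA and 5.93, 5.59 and 6.65 TPM under PBS, with FA replicate 3 the highest. The log2 difference was 0.08 ± 0.14, from -0.26 to 0.42, and it was -0.036 without FA replicate 3.

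Chac1, which encodes an enzyme that degrades glutathione, measured 3.29, 3.28 and 3.72 TPM under FA and 3.55, 2.26 and 4.84 TPM under PBS. Unlike for Ddit3, the spread here was in the PBS group, whose tumours held the lowest and the highest value, a 2.14-fold range. The log2 difference was 0.0002 ± 0.22, from -0.53 to 0.53. Its mean TPM was lower under FA, at 3.43 against 3.55 TPM, and each rescaling of the libraries tried put its log2 difference below 0. At this level the pseudocount of 1 shrinks log2 differences.

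Nupr1 encodes a small stress-induced chromatin protein first described in pancreatitis. It measured 302.12, 272.41 and 317.81 TPM under FA and 269.27, 327.20 and 321.57 TPM under PBS. PBS tumours held both the lowest and the highest value, and the log2 difference was -0.04 ± 0.10, from -0.27 to 0.20. Chac1 and Nupr1 share the promoter core TGATGCAA, and their r over the 6 tumours was -0.044.

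FA replicate 2 was the lowest of the 6 tumours for 6 of the 10 genes, where it was lowest in 9.71% of all tested genes. The 6 were Atf4, Ddit3, Trib3, Asns, Ppp1r15a and Eif4ebp1. FA replicate 3 was highest for 4 genes, Atf4, Asns, Sesn2 and Eif4ebp1, and it was highest in 29.4% of all tested genes. PBS replicate 3 was highest for Atf5, Ppp1r15a and Chac1, and it was highest in 8.43% of all tested genes. The mean log2(TPM + 1) of the 10 genes was 5.40, 5.06 and 5.32 under FA and 5.29, 5.24 and 5.46 under PBS, so FA replicate 2 was the lowest tumour and PBS replicate 3 the highest.

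All 45 pairs of the 10 genes were compared over the 6 tumours by exact two-sided permutation tests, with p-values adjusted over the 45 pairs. Positive r was found for 37 pairs, and 5 had an unadjusted p under 0.05, and 0 had an adjusted p under 0.05. The smallest p of r that 6 tumours allow is 0.00139, so a single pair can reach an adjusted p of 0.0625 at best. For rho the limit is higher, since even rho = 1 has a p of 0.00278. An adjusted p under 0.05 would need more than a single pair with a low p, so it cannot decide whether a given pair varied together. Without FA replicate 3, r was positive for 44 of the 45 pairs, the exception being Chac1 and Nupr1 at -0.10. FA replicate 2, the lowest tumour for 6 of the 10 genes, was still included there. No share of positive r was computed for pairs of other genes, so these counts cannot be set against a background. All pairs come from the same 6 libraries. Ddit3 and Trib3 were the closest pair, with r = 0.97 (exact permutation p = 0.00139, adjusted p = 0.0625) and rho = 1 (exact permutation p = 0.00278, adjusted p = 0.0625). Without the 2 tumours farthest from the Ddit3 median, FA replicates 2 and 3, their r was 0.87.

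Atf4 and Asns also had the same order of tumours, with r = 0.87 (exact permutation p = 0.0222, adjusted p = 0.411) and rho = 1 (exact permutation p = 0.00278, adjusted p = 0.0625). Their r was 0.96 without FA replicates 2 and 3. Between the 2 pairs the relation was weak, at r = 0.36 for Atf4 and Ddit3 (rho = 0.37, exact permutation p = 0.476 and 0.497, adjusted p = 0.892 and 0.861). FA replicate 3 was high for Atf4 and low for Ddit3, and r was 0.90 without that tumour. Ddit3 and Asns likewise went from r = -0.095 over all tumours to r = 0.87 without FA replicate 3. Over all tumours their rho was 0.37, with exact permutation p = 0.883 for r and 0.497 for rho. The adjusted p-values were 0.935 and 0.861. Leaving out FA replicates 2 and 3 lowered r for other pairs with an unadjusted permutation p under 0.05. It fell from 0.81 to -0.042 for Atf4 and Eif4ebp1 and from 0.86 to 0.32 for Asns and Sesn2. Atf5 and Trib3 went from 0.88 to 0.80 without FA replicate 3 and PBS replicate 3, the tumours farthest from the Atf5 median.

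**Figure D3:**
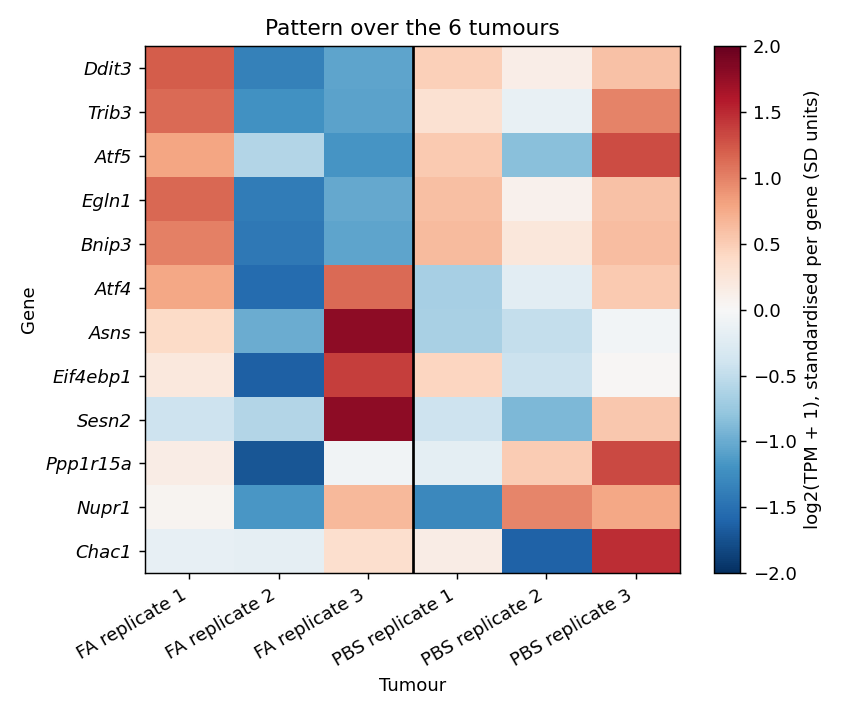
Log2(TPM + 1) of the 10 genes and of Egln1 and Bnip3, standardised for each gene over the 6 tumours (colour, SD units), with the FA tumours to the left of the black line. FA replicate 3 is low for Ddit3, Trib3 and Atf5 and high for Atf4, Asns, Eif4ebp1 and Sesn2, while FA replicate 2 is low in both sets.

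The genes nearest in pattern were found by the mean absolute distance of standardised log2(TPM + 1) over the 6 tumours. The search covered tested genes other than unnamed gene models, pseudogenes and small RNAs. It picks the closest of many genes over only 6 values, and no distance expected for unrelated genes was computed. For Ddit3 they were Egln1, a prolyl hydroxylase that marks hypoxia-inducible factor for degradation (distance 0.0523 SD), Bnip3, a mitophagy receptor induced by hypoxia (0.0907 SD), and Tollip, an adaptor of Toll-like receptor signalling (0.101 SD). Egln1 measured 95.10, 51.83 and 56.68 TPM under FA and 83.64, 73.90 and 83.16 TPM under PBS. Bnip3 measured 177.94, 73.01 and 83.84 TPM under FA and 155.10, 133.69 and 154.10 TPM under PBS. In both, as in Ddit3, FA replicate 1 was above all PBS tumours and FA replicates 2 and 3 below them.

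The 10 hypoxia targets chosen as a marker list summed to 3025, 1994 and 2228 TPM under FA and 2845, 2615 and 2782 TPM under PBS. FA replicate 1 held the highest value for 7 of these 10 genes and FA replicate 2 the lowest for 7. Over all tested genes those shares were 18.9% and 9.71%. The mean was lower in FA for all 10 hypoxia targets, where 50.7% of tested genes were higher. Their median log2 difference was -0.30, and 0 passed the threshold. Without FA replicate 3 all 10 were again lower, with a median of -0.23, where 55.5% of tested genes were higher. The 10 genes share the same tumours, so they are not separate observations of a treatment difference. Bnip3 belongs to this list. The part of hypoxia in the values of the stress response genes was not tested. For Atf4 the nearest patterns were Zc3h15, a zinc finger protein gene (0.144 SD), the cell adhesion gene Cadm4 (0.196 SD) and Ss18l2 (0.211 SD). These were farther away than those of Ddit3.

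The upstream arm of the pathway showed no difference past the threshold. Of 16 genes for the eIF2α kinases, eIF2 and eIF2B subunits and phosphatase machinery, all were tested, 8 were higher and 8 lower in FA, 0 passed, and the median difference was -0.00054. Eif2ak3, the kinase PERK of the endoplasmic reticulum (ER), measured 17.9 ± 1.66 TPM under FA and 17.6 ± 1.76 TPM under PBS. Eif2ak4, the kinase GCN2 that senses uncharged tRNA, was at 14.2 ± 1.64 and 14.3 ± 0.707 TPM. Eif2ak2, the kinase PKR that binds double-stranded RNA and is induced by interferon, was at 17.2 ± 2.35 and 15.3 ± 1.89 TPM, a log2 difference of 0.16 with an interval from -0.17 to 0.49, which was 0.067 without PBS replicate 3 and 0.27 without FA replicate 3. Eif2s3x, the eIF2 γ subunit gene, was at 129.6 ± 8.67 and 135.1 ± 4.55 TPM.

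ATF4 partners and feedback genes gave 5 higher and 9 lower of 14, a median of -0.020, and 0 past the threshold. Cebpb, which encodes a dimer partner of ATF4, was at 19.8 ± 3.32 and 19.5 ± 2.72 TPM. Ddit4, which encodes the mTORC1 inhibitor REDD1 and responds to both ATF4 and hypoxia, measured 109.06, 58.80 and 67.89 TPM under FA and 86.42, 109.55 and 113.13 TPM under PBS. As with Ddit3, FA replicates 2 and 3 lay below every PBS tumour, but FA replicate 1 did not exceed them all, and the log2 difference was -0.43 ± 0.23. It was -0.69 without FA replicate 1 and -0.25 without FA replicate 2. Batf2, a small factor of the AP-1 family, was at 1.37 ± 0.302 and 0.79 ± 0.288 TPM with no overlap, a log2 difference of 0.41 with an interval from -0.067 to 0.89. At this low level the difference was 0.76 with a pseudocount of 0.1, and it was 0.27 without PBS replicate 3. Batf2 was 1 of 14 genes of this list without overlap, against 4.69% of tested genes, and was picked for its low unadjusted p.

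Genes of amino acid supply had higher means in FA for most members. Of 11 synthesis genes, 9 were higher and 2 lower, with a median of 0.080, and 0 passed. FA replicate 3 was the highest tumour for 8 of these 11, and without it 5 were higher and 6 lower, with a median of -0.0008. Psat1, of the serine pathway, measured 83.33, 70.58 and 101.83 TPM under FA and 87.43, 71.48 and 80.94 TPM under PBS, with FA replicate 3 above all others. Pycr1, which makes proline, was at 12.7 ± 0.863 and 11.4 ± 0.706 TPM, and Gpt2, a mitochondrial alanine transaminase, at 11.9 ± 1.76 and 13.8 ± 1.11 TPM. The part of the stromal and muscle RNA of FA replicate 3 in these values was not tested.

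Of 12 amino acid transporter genes, 9 were higher and 3 lower in FA, with a median of 0.086, and 0 passed. Without FA replicate 3 the counts were again 9 and 3, with a median of 0.042. Slc7a11, the cystine importer that feeds glutathione synthesis, measured 2.73, 2.79 and 2.91 TPM under FA and 2.47, 2.11 and 2.20 TPM under PBS. All FA tumours were above all PBS tumours, and the log2 difference was 0.23 ± 0.13 with an unadjusted p of 0.124 and an adjusted p of 1 from limma. Slc38a1, a glutamine carrier, was at 5.59 ± 0.456 and 4.46 ± 0.543 TPM and did not overlap either, with a difference of 0.27 ± 0.13. These were 2 of 12 transporter genes without overlap, against 4.69% of tested genes. Each of the other pathway lists held 0 or 1 such gene, and the lists ranged from 8 to 21 tested genes. Both transporters were picked for their low unadjusted p, and Slc7a11 was also chosen by name. At these low levels the pseudocount mattered, and with 0.1 the difference was 0.30 for Slc7a11 and 0.32 for Slc38a1.

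The 14 genes of the aminoacyl-tRNA synthetase list, which includes a tRNA exporter, gave 8 higher and 6 lower, with a median of 0.022, and 0 passed. Nars, for asparagine, was at 217.8 ± 13.3 and 205.4 ± 13.4 TPM, and Sars, for serine, at 197.5 ± 17.6 and 209.7 ± 9.08 TPM. Both intervals of the difference included 0, from -0.098 to 0.27 and from -0.28 to 0.11.

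Of 15 secreted and other outputs, 14 were tested, 4 were higher and 10 lower, with a median of -0.094, and 0 passed. Without FA replicate 3, 8 were higher and 6 lower, with a median of 0.017. Gdf15, a stress hormone that suppresses appetite, was low at 1.26 ± 0.0839 and 1.09 ± 0.165 TPM. Tfeb, a lysosomal transcription factor, measured 12.64, 13.11 and 10.15 TPM under FA and 14.23, 16.32 and 15.93 TPM under PBS. Every FA tumour was below every PBS tumour, the log2 difference was -0.35 ± 0.12, and the unadjusted p of 0.0255 from limma did not hold after adjustment (adjusted p of 1). Tfeb was 1 of 14 tested genes of this list without overlap, against 4.69% of tested genes, and was picked for its low unadjusted p. Vldlr, a lipoprotein receptor gene that is also a hypoxia target, was at 45.5 ± 13.4 and 52.1 ± 3.89 TPM.

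The ER chaperone branch, which XBP1 and ATF6 drive beside the PERK arm, gave 16 higher and 5 lower of 21, with a median of 0.050, and 0 passed. FA replicate 3 was the highest tumour for 13 of the 21, and without it 9 were higher and 12 lower, with a median of -0.010. Hspa5, the ER chaperone BiP, measured 592.81, 606.56 and 718.61 TPM under FA and 623.43, 571.02 and 618.50 TPM under PBS. FA replicate 3 alone lay above the PBS range, and Ddit3 was low in that same tumour. Dnajb11, a BiP partner, was at 73.7 ± 13.1 and 65.1 ± 6.02 TPM, and Derl3 at 1.34 ± 0.191 and 0.947 ± 0.107 TPM.

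Mitochondrial chaperones and proteases gave 5 higher and 3 lower of 8, with a median of 0.019, and 0 passed. Trap1, a mitochondrial HSP90, measured 75.52, 79.26 and 75.58 TPM under FA and 71.28, 70.27 and 70.17 TPM under PBS. The groups did not overlap, and the log2 difference of 0.12 ± 0.06 had an interval from -0.021 to 0.26. Trap1 was 1 of 8 genes of this list without overlap, against 4.69% of tested genes, and was picked for its low unadjusted p. Hspd1, the chaperonin HSP60, was at 369.9 ± 37.8 and 350.7 ± 33.8 TPM.

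**Figure D4:**
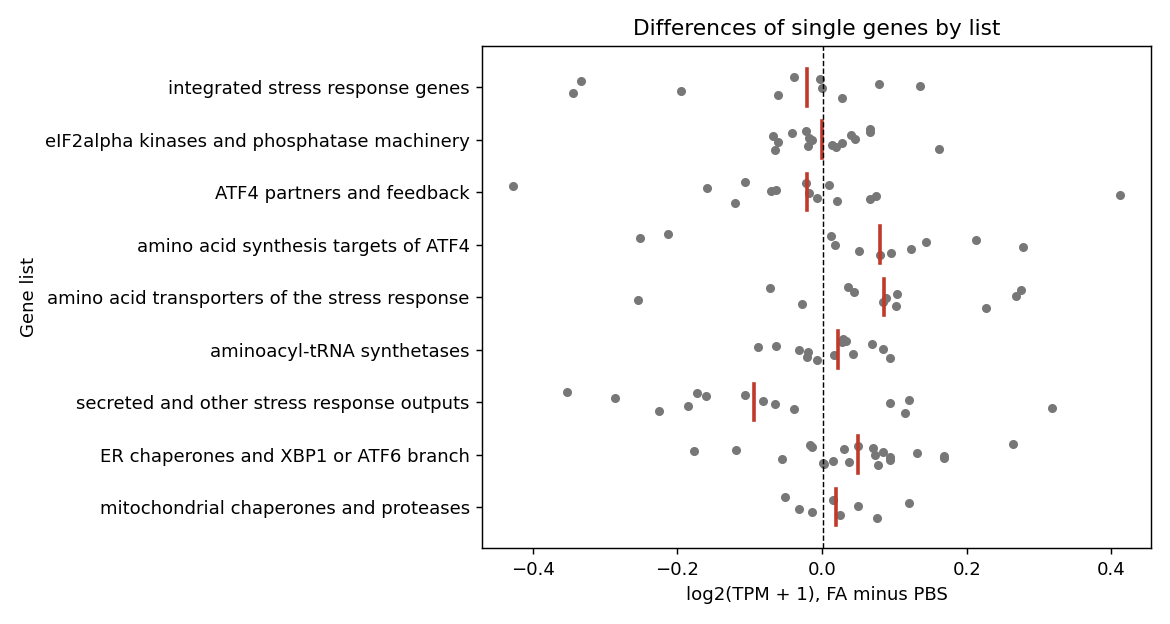
Log2(TPM + 1) difference, FA minus PBS, of each tested gene (grey points) in the 10 integrated stress response genes and in 8 related lists, with list medians (red bars) and the median of all tested genes (dashed line). List medians lie between -0.094 and 0.086, and no single gene passed the test.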

How the data were processed

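The authors deposited 1 table of TPM per Ensembl gene for the 6 tumours. Tools listed in the submitters' processing notes are STAR, RSEM, featureCounts and FastQC, with no version or role. Libraries were stranded total RNA, per the labels' protocols, and no source used here names the genome build or annotation. Each column was assigned by its sample description, whose prefixes differ between FA and PBS, so whatever a prefix marks cannot be told apart from treatment. TPM keeps no depth, so no counting interval is given.

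Log2(TPM + 1) of the 15023 genes averaging 1 TPM or more was fitted with limma 3.58.1 in R 4.3.3, FA against PBS with a variance trend. Two-sided p-values were adjusted by Benjamini-Hochberg over all tested genes, with a threshold of 0.05. The fit was tested on simulated data with larger changes than those of the 10 genes. That test does not show whether differences of their size can be found. The members and lists were chosen with earlier results of these data known. Genes named beyond the 10 are up to 2 per pathway list by the smallest unadjusted p, 7 chosen by name (Eif2ak3, Eif2ak4, Cebpb, Psat1, Slc7a11, Hspa5 and Gdf15), and 3 each nearest in pattern to Atf4 and Ddit3, leaving out unnamed gene models, pseudogenes and small RNAs. Of the marker lists, adipocytes summed to 24.3 to 169.6 TPM in FA and 33.5 to 70.4 TPM in PBS tumours, erythroid genes to 190.0 to 341.2 and 81.8 to 635.0 TPM, macrophages to 1128 to 2292 and 1147 to 1434 TPM, endothelium to 64.2 to 243.1 and 70.2 to 111.0 TPM, and skeletal muscle to 12.8 to 1185 and 14.6 to 174.4 TPM. Acta1, Ckm, Myh4, Myh1, Plin1, Lep, Cd3d, Cd8a and Ncr1 were listed at 0 in at least 1 tumour.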

Additional observations from a re-analysis of the deposited data

How the results depend on the processing

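The counts of 0 higher and 0 lower among the 10 genes by limma held in every alternative, at an adjusted p under 0.1 too. Over all genes, 2 were called higher without the filter, and 0 to 1 were called lower when 1 tumour was left out, the 1 without FA replicate 3. Of 374 values of named genes under other settings, 13 changed sign and 0 passed. These were, with array weights, Atf4 (-0.036), Chac1 (-0.13), Sesn2 (-0.033), Hspd1 (-0.00078), Eif2ak4 (0.064), Cebpb (-0.059), Psat1 (-0.046), Cadm4 (-0.021) and Ss18l2 (-0.12), and Chac1 after median-ratio rescaling (-0.0028), quantile normalization (-0.039) and rescaling without mitochondrial and the 50 highest genes (-0.0013). Cadm4 was at -0.0051 after quantile normalization. The cause was not tested.

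Leaving out 1 tumour changed the sign of 27 of 227 values and none passed. The ranges were -0.030 to 0.12 for Atf4, -0.22 to 0.20 for Chac1, -0.036 to 0.14 for Sesn2, -0.10 to 0.11 for Eif4ebp1, -0.13 to 0.023 for Nupr1, -0.0063 to 0.14 for Hspd1, -0.051 to 0.086 for Eif2ak3, -0.079 to 0.072 for Eif2ak4, -0.089 to 0.14 for Cebpb, -0.054 to 0.21 for Psat1, -0.010 to 0.13 for Hspa5, -0.020 to 0.033 for Zc3h15, -0.020 to 0.096 for Cadm4 and -0.12 to 0.19 for Ss18l2. With the replicate block, 0 of the 10 genes were called higher and 0 lower. In this balanced design the block leaves each difference as it is and can move only p, which for Ddit3 (-0.35) went from 0.262 to 0.198 by limma, unadjusted. Same-numbered tumours did not deviate together, with r across genes of -0.21, 0.053 and -0.022, and the labels do not say that a number, or the description suffix that replicates 1 and 2 share across groups, marks a common animal or batch. Mean levels under 5 TPM left Chac1 out of the stricter filter. What depth limits cannot be told from TPM.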
